A study of Mus musculus with 16 samples.

Results

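Metallothioneins are small cysteine-rich proteins that bind zinc and copper. The mouse has 4 such genes side by side on chromosome 8, Mt1, Mt2, Mt3 and Mt4, and all 4 symbols were looked for in the deposited tables of this series. Mt1 and Mt2 were found, so 2 of the 5171 genes in any table are described here. Mt3 and Mt4 are in no table and were not analysed here. They were chosen by symbol and by presence in a table, and the family was selected on the measured KO minus WT differences of Mt1, so its levels and differences are given as a description with no test.

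In most tissues Mt1 and Mt2 are transcribed when free zinc rises and binds the transcription factor MTF1, which recognises metal response elements near their start sites. Glucocorticoids, oxidative stress and the cytokine IL-6 acting through STAT3 are known to raise both genes as well. In the gut, metallothionein is made mainly by epithelial cells, where it stores zinc and copper and scavenges oxidants, and it is known as an acute phase protein in inflammation. Mt3 is best known from the brain and Mt4 from squamous epithelia.

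RNA was sequenced from whole colon of C57BL/6 mice that were wild type (WT) or carried a Vil-Cre mediated KO of Smarcad1, an ATP-dependent chromatin remodeler. The Cre recombinase is driven by the villin promoter and deletes floxed internal exons in epithelial cells, so the other cells of the tissue kept the gene. All mice received an enriched microbiota from donors of another facility, starting 2 weeks before colitis induction. For colitis, mice drank water with 1% DSS (dextran sodium sulphate), a charged polymer that injures the colonic epithelium, for 15 days. The groups were WT control and KO control, with 3 libraries each and no DSS, and WT colitis and KO colitis, with 5 libraries each. The labels give no age. The source label is colon, whereas the series text speaks of small intestinal tissue, and the label is followed here. The colon markers Car1, Slc26a3 and Aqp8, of surface colonocytes, had group means between 9.36 and 11.74 log2 RPM.

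Only the authors' group means were used. They are means of log2 RPM (reads scaled to a common library total of 1 M) over the libraries of a group, so no spread between mice is given, and no difference below was tested here. Counts by sample, which the study lists in its supplement, were not used. Whether a gene passed the authors' threshold in a comparison is read only from its presence in that table. The steps of the lowest means gave geometric mean library sizes between 8.005 M and 10.1 M (megareads). Intervals below are exact 95% binomial intervals on the reads behind a difference, and they cover counting error only, not the variation between animals. Smarcad1 itself was lower in KO, with differences of −1.18 in control and −1.13 in colitis on the log2 scale.

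Mt1 lies at chr8:94179082-94180327 on the plus strand of GRCm38 and Mt2 at chr8:94172664-94173568 on the same strand, upstream of Mt1. Both are protein coding with 3 exons in the spliced transcript. The coding sequences are shown because they hold the property that names the family and because they bear on whether reads of the 2 genes can be told apart. They are taken from the GENCODE transcripts, 5′ to 3′, and capitals mark each in-frame TGC or TGT, the codons of cysteine. The Mt1 coding sequence spans chr8:94179311-94180193 and that of Mt2 chr8:94172848-94173427, introns included.
Mt1 coding sequence: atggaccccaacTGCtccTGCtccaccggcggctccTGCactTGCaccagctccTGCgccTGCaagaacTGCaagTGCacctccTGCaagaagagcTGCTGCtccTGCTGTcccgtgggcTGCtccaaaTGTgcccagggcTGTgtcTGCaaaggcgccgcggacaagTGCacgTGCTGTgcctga
Mt2 coding sequence: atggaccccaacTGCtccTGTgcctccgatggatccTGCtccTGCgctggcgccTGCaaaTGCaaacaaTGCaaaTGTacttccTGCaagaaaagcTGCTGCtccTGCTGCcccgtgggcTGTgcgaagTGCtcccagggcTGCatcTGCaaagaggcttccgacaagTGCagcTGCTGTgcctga

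Of 61 codons before the stop, 20 were cysteine codons in each gene, and they stood at the same positions. Mt3 and Mt4 also have 20 cysteine codons, among 68 and 62 codons. The coding sequences of Mt1 and Mt2 were equal at 148 of 186 bases (79.6%). A read of 100 bases can still separate them, since each of the 450 windows of that length along the spliced Mt1 transcript differed from every window of the spliced Mt2 transcript at 17 or more bases. Of the 1267 words of 25 bases in Mt1 transcripts, 3 also occur in another gene, and that gene is Mt3. Of the 579 such words in Mt2 transcripts, 354 occur on the opposite strand in Gm45774, an antisense gene that overlaps 432 of the 588 exonic bases of Mt2. Another 13 occur on the same strand in Pip5k1a. The sources used here do not say whether counting used strand, so reads of Mt2 and Gm45774 cannot be told apart in the Mt2 values. Gm45774 is in no table and overlaps no exon of Mt1.

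The sequences upstream of the start sites are shown because both genes are known targets of MTF1. They come from RefSeq (GRCm38.p6), run 5′ to 3′ on the plus strand and end before the first transcribed base of the main annotated models. Another Mt1 transcript is annotated to start 159 bases after the longer Mt1 model, and the bases just before that start are not shown. The TATAAA described below lies past the end of both stretches. Capitals mark the core of the metal response element, searched as TGCACNC or TGCGCNC on both strands, so that a match on the minus strand appears as its reverse complement. The Mt1 stretch is chr8:94178839-94179081 and the Mt2 stretch is chr8:94172368-94172617.
Mt1 promoter: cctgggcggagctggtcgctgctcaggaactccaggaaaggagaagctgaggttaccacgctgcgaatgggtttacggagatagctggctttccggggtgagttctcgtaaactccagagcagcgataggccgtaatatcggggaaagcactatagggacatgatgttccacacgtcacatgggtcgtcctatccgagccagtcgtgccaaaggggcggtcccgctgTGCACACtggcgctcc
Mt2 promoter: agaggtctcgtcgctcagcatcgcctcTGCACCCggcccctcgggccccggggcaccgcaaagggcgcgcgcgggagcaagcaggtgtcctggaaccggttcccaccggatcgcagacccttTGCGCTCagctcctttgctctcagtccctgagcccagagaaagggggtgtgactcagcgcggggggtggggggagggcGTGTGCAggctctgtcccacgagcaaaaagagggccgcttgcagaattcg

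In the whole RefSeq window of 300 bases, which also holds the first transcribed bases, the core occurred 3 times for Mt1, 4 times for Mt2 and 1 time each for Mt3 and Mt4. At least 3 matches were found in 1.97% of all 32851 promoter windows, at least 4 in 0.517% and at least 1 in 25.7%. The annotated 5′ UTR of the longer models holds further matches, which overlap the window in part. It has 4 within 229 bases for Mt1 and 3 within 184 bases for Mt2. As many matches were found in the first bases, over the same length, of 0.182% and 0.64% of the first transcripts of protein-coding genes. A TATAAA also occurred there, 101 bases before the start codon of Mt1 and 95 bases before that of Mt2. Another Mt1 transcript is annotated to start between that TATAAA and the start codon. The 4 matches in the Mt1 5′ UTR lie further from the start codon than its TATAAA, so they are upstream of that transcript. An antioxidant response element core, searched as TGACNNNGC, occurred in the window of Mt2 and in 12.4% of all windows, and it did not occur in that of Mt1. The STAT core TTCNNNGAA, found in 8.3% of windows, occurred in none of the 4. These 2 cores were searched in the windows only. The rest of the 5′ UTR, where the TATAAA of Mt1 and of Mt2 lies, was not searched for them. Their absence from the Mt1 window therefore does not show that Mt1 lacks them. Cores of the metal response element therefore stand near both starts.

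Mt1 was higher in KO than in WT in both conditions and differed little with colitis. On the log2 RPM scale the WT mean given by the authors was 6.92 without and 7.09 with colitis, and the KO mean was 8.44 without and 8.34 with colitis. In linear units these levels are 121 and 136 RPM in WT and 348 and 325 RPM in KO, or about 1222 and 1090 reads per library in WT and 3399 and 3208 in KO. Both KO groups thus stood above both WT groups. Among the genes in any table, 75.9% had a lower WT control mean than Mt1 and 92.2% a lower KO control mean.

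**Figure D1:**
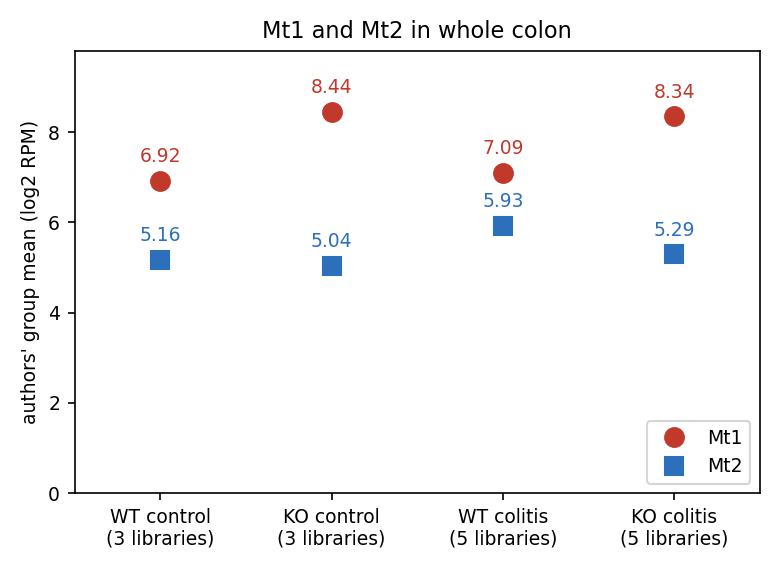
Authors' group means of Mt1 (red circles) and Mt2 (blue squares) in log2 RPM for the 4 groups, with the number of libraries under each group and no error bars because single libraries were not used. Mt1 stands at 8.44 and 8.34 in the KO groups against 6.92 and 7.09 in the WT groups, while Mt2 is highest in WT colitis at 5.93.

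The genotype difference of Mt1, as KO minus WT, was 1.53 on the log2 scale in control (counting interval 1.47 to 1.58), or 2.88-fold. In colitis it was 1.26 (counting interval 1.21 to 1.30), or 2.39-fold. Mt1 is in both tables that compare KO with WT. These tables hold 46 genes in control and 56 in colitis, which are 0.89% and 1.08% of the 5171 genes in any table, and this membership is what led to Mt1 being described. The number of genes that the authors tested was not used here, so these shares refer to genes in the tables. For comparison, the median difference over all 5171 genes was 0.00 in control and −0.01 in colitis.

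In the control table, 27 genes were higher and 19 lower in KO. Mt1 was 10th among the 27 by log2 difference, and 1st by its level in KO. In the colitis table, 36 genes were higher and 20 lower, and Mt1 was 16th by log2 difference and 2nd by level in KO. On the linear scale Mt1 gained 227 RPM in control and 189 RPM in colitis, the second largest gain in either table among the genes higher in KO. The gene above it was Bglap3, of the osteocalcin family, in control with 237 RPM, and Car2, a carbonic anhydrase named after its value was seen, in colitis with 624 RPM. Mt1 therefore ranked higher by reads added than by fold.

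The colitis difference of Mt1, as colitis minus control, was 0.17 in WT (counting interval 0.11 to 0.23) and −0.10 in KO (counting interval −0.13 to −0.06). Mt1 is in neither colitis table. Over all genes in the tables the median colitis difference was 0.13 in WT and 0.19 in KO, so relative to these medians Mt1 stood at 0.05 in WT and −0.29 in KO. An absolute colitis difference as large as that of Mt1 or larger was found for 4729 of the 5171 genes in WT and for 5076 in KO. The colitis difference in KO minus that in WT was −0.27, against a median of −0.02, and was not tested. The 4 differences come from the same 4 means, so they are not independent of each other.

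Ordered by level, the Mt1 means ran from KO control through KO colitis and WT colitis to WT control. The 2 KO means were 0.10 apart and the 2 WT means 0.17 apart, while the KO and WT means nearest to each other were 1.26 apart. Whether the neighbours within a genotype differ beyond the spread between mice was not tested. In whole tissue, more RNA per cell and more cells of the type that makes it cannot be told apart.

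Mt2 was not higher in KO. Its WT mean was 5.16 log2 RPM without and 5.93 with colitis, or 35.8 and 60.9 RPM. Its KO mean was 5.04 without and 5.29 with colitis, or 32.9 and 39.1 RPM. WT colitis stood apart as the highest group, and the other groups lay within 0.25 of each other. KO minus WT was −0.12 in control (counting interval −0.25 to 0.00) and −0.64 in colitis (counting interval −0.72 to −0.55). Mt2 is in neither table that compares genotypes, so neither difference passed the authors' threshold.

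Colitis minus control for Mt2 was 0.76 in WT, or 1.70-fold (counting interval 1.58 to 1.82-fold), and 0.25 in KO, or 1.19-fold (counting interval 1.10 to 1.29-fold). Relative to the medians over all genes in the tables, Mt2 stood at 0.64 in WT and 0.06 in KO. Centring on well covered genes likewise took the KO value to 0.068 or 0.049, below its counting interval. Mt2 is in the WT colitis table, which holds 63.1% of the genes in any table, and is not in the KO colitis table, which holds 78.4%. With shares of that size, being in the WT table says little about Mt2. The difference between these colitis differences was −0.51 and was not tested. An absolute value as large or larger was found for 925 of the 5171 genes.

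The balance of the 2 genes shifted with genotype. Per library total, Mt1 had 3.37 times as many reads as Mt2 in WT control and 2.24 times in WT colitis, against 10.6 times in KO control and 8.30 times in KO colitis. Their summed level was 157 RPM without and 197 RPM with colitis in WT, of which Mt1 made up 77.1% and 69.1%. In KO the sum was 381 and 364 RPM, of which Mt1 made up 91.4% and 89.3%. Levels of 2 genes can be set against each other only per length of transcript. Per kilobase of the union of their exons, 1246 bases for Mt1 and 588 for Mt2, Mt1 minus Mt2 was 0.67 on the log2 scale in WT control, 0.08 in WT colitis, 2.32 in KO control and 1.97 in KO colitis. The union for Mt1 includes its introns, because 1 annotated transcript retains them. With the spliced transcripts of 549 and 511 bases the same values were 1.65, 1.06, 3.30 and 2.95, so Mt1 was above Mt2 in all 4 groups by either length. The size of the gap in WT colitis depends on which transcripts gave the reads.

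The plot of genotype differences sets Mt1 beside the other genes in both tables that compare KO with WT. There were 12 such genes, 10 of them higher and 2 lower in KO. The tables share no libraries, but a gene had to pass in both to be counted. Aplp1, an amyloid precursor-like protein, was the nearest to Mt1 in size, with 1.78 in control and 1.49 in colitis. Gsta3, a glutathione S-transferase, had 0.98 and 1.25, and Mctp1, a membrane protein of the endoplasmic reticulum, 1.09 and 0.96. Bambi, a pseudoreceptor that dampens TGF-beta and BMP signals, had 2.15 and 1.81, and Dlk1, a Notch ligand relative, 1.69 and 2.38. Bglap3 had 3.61 and 3.81. The remaining higher genes, AC151971.2, Kirrel2 and Khdc1a, had WT control means of −1.09, −3.01 and −0.54 log2 RPM. A mean of 3 reads per library stood at −1.75 in that group, so Kirrel2 was under it. Mb21d2 was lower by −1.27 and −1.33. Mt1 was the highest of the 12 in KO control and in KO colitis, at 8.44 and 8.34 log2 RPM.

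**Figure D2:**
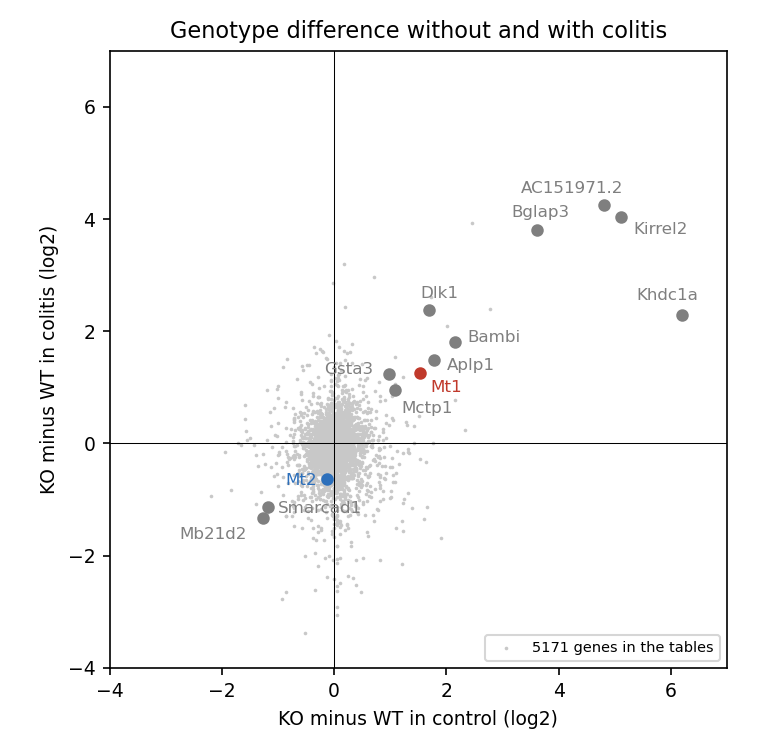
KO minus WT in control (horizontal axis, log2) against KO minus WT in colitis (vertical axis, log2) for the 5171 genes in any table (light grey), with the 12 genes in both tables of KO against WT in dark grey, Mt1 in red and Mt2 in blue. Mt1 lies at 1.53 and 1.26 close to Aplp1, and Mt2 lies inside the cloud at −0.12 and −0.64.

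Across all genes in any table, 16 had a KO minus WT difference of at least 1 in both conditions. Of these 16, Mt1 and Aplp1 were the 2 whose colitis difference was within 0.2 of 0 in both genotypes, limits that were set after the values were seen.

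The plot of colitis differences places both metallothioneins against genes with larger differences. Socs3, the feedback inhibitor induced by STAT3, lay at 3.43 in WT and 2.62 in KO. Sgk1, a kinase induced by glucocorticoids, lay at −2.35 and −2.62. Mt1 and Mt2 both lay nearer the centre than these genes, and Mt2 was further out than Mt1. An absolute colitis difference as large as that of Mt2 or larger was found for 2206 genes in WT and 4579 in KO. For Mt1 these counts were 4729 and 5076.

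**Figure D3:**
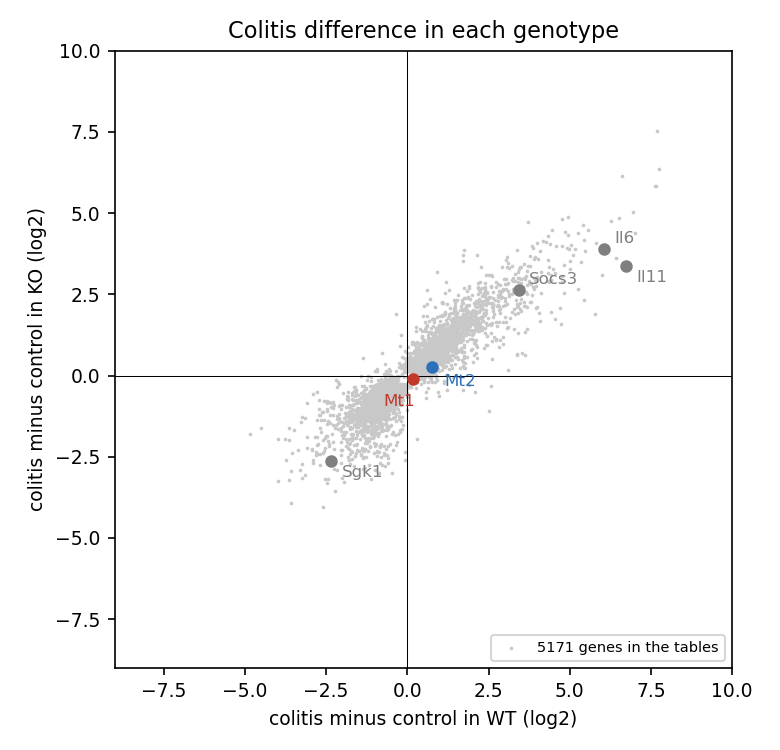
Colitis minus control in WT (horizontal axis, log2) against the same in KO (vertical axis, log2) for the 5171 genes in any table (light grey), with Mt1 in red, Mt2 in blue and Il6, Il11, Socs3 and Sgk1 in dark grey. Mt1 at 0.17 and −0.10 and Mt2 at 0.76 and 0.25 lie nearer the centre than Socs3 at 3.43 and 2.62. Il6 in both control groups and Il11 in WT control had means under 3 reads per library.

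The region around Mt1 was examined for other genes in the tables. Within 1 Mb of the Mt1 start there were 8 besides Mt1 and Mt2, all of them in a colitis table and none in a table of KO against WT. Of all genes in any table, 0.89% (control) and 1.08% (colitis) are in the tables of KO against WT. The colitis tables hold 63.1% (WT) and 78.4% (KO). With 8 genes, counts near these shares say little about the region. The KO minus WT differences of the 8 ran from −0.52 to 0.79 in control, with a median of 0.15. In colitis they ran from −0.39 to 0.01, with a median of −0.07. The control value was largest for Ces1g, a carboxylesterase, at 0.79, and its colitis value was −0.08. Nup93, a nuclear pore protein that starts 35.5 kb downstream of Mt1, had 0.12 and −0.12. Nlrc5, a regulator of MHC class I genes, had 0.43 and −0.06 while its colitis difference was 3.09 in WT and 2.60 in KO. Mt2 ends 5513 bases before Mt1 starts. Among these genes, only Mt1 was higher in KO by more than 1 in either condition.

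**Figure D4:**
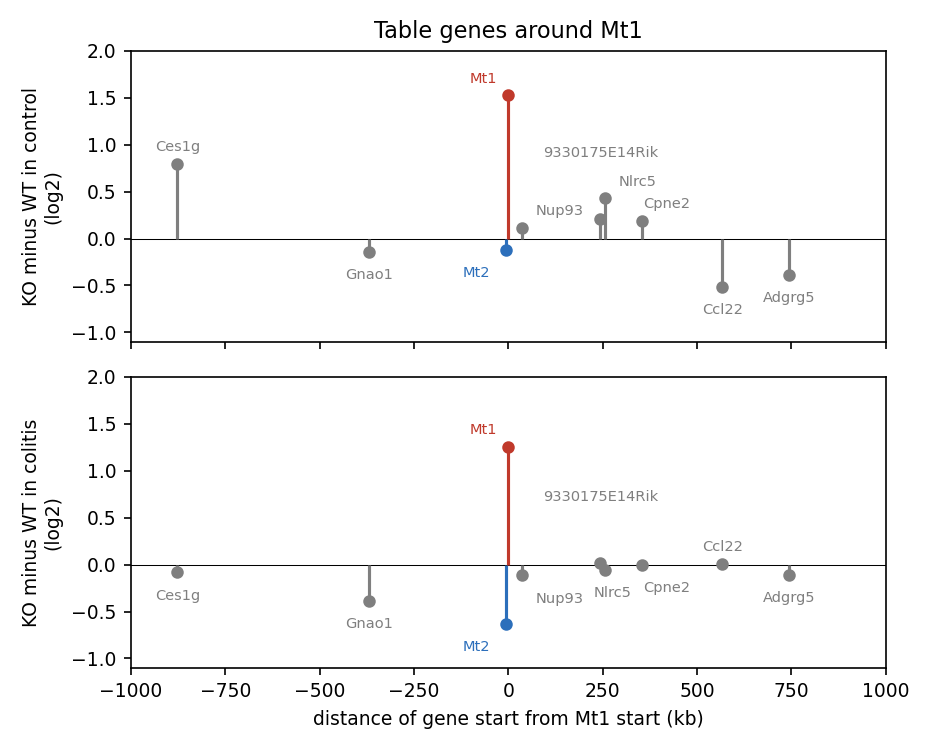
KO minus WT (log2) in control (top) and colitis (bottom) for the genes in any table that start within 1 Mb of Mt1, against the distance of their start from the Mt1 start in kb. Mt1 stands at 1.53 and 1.26, Mt2 at −0.12 and −0.64, and the 8 other genes between −0.52 and 0.79.

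Genes with a pattern like that of each metallothionein were ranked by the distance between their 4 group means, each centred on the gene's own mean, over all 5171 genes. The 10 nearest to Mt1 were Aplp1 (distance 0.25), Nxf7 (0.37), Mctp1 (0.40), Gsta3 (0.52), 2610524H06Rik (0.57), Hoga1 (0.73), Dlk1 (0.85), Unc5cl (0.88), Cirbp (0.91) and Rps12-ps3 (0.92). All 10 had higher means in KO than in WT in both conditions, as the ranking requires for near genes. Each of them is in at least 1 table of KO against WT, and those tables hold 0.89% (control) and 1.08% (colitis) of all genes in any table. The ranking favours genes with differences near those of Mt1, so this membership is not separate evidence. Nxf7, of the nuclear RNA export factor family, had 1.09 in control and 1.54 in colitis. Hoga1, a mitochondrial aldolase of hydroxyproline breakdown, had 0.52 and 1.02. Cirbp, the cold-inducible RNA-binding protein, and the ribosomal protein pseudogene Rps12-ps3 both had 0.54 and 0.42. Only 3 genes lay within a distance of 0.5 of Mt1, whereas 811 lay within that distance of Mt2, and Mt2 itself was 3684th from Mt1, at 1.84.

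The 5 nearest to Mt2 were Adcy4 (distance 0.03), Col4a1 (0.07), Aebp1 (0.08), Gem (0.09) and Serpine2 (0.10). Col4a1, a chain of basement membrane collagen, had 0.75 for colitis minus control in WT and 0.29 in KO, and Adcy4, an adenylyl cyclase, had 0.79 and 0.23. Aebp1, a secreted protein of the collagen matrix, had 0.79 and 0.16. Likeness here is over 4 means that come from the same libraries for every gene, and it is a description of these libraries.

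**Figure D5:**
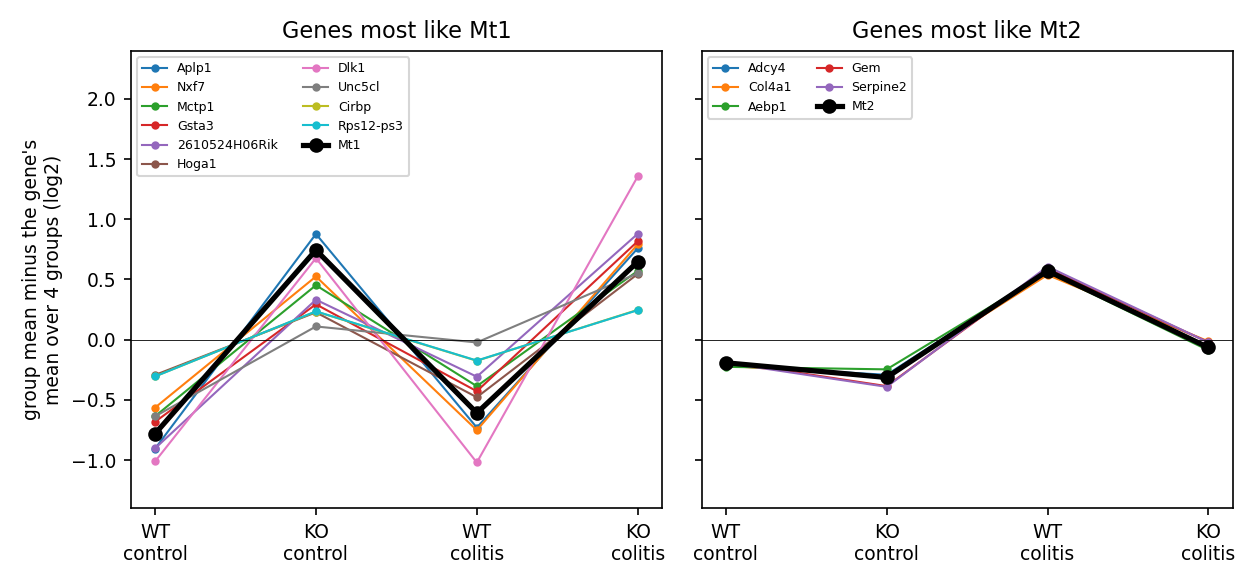
Group means minus the gene's mean over the 4 groups (log2) for the 10 genes most like Mt1 (left) and the 5 most like Mt2 (right), with Mt1 and Mt2 as thick black lines. The Mt1 pattern is high in both KO groups, and the Mt2 pattern peaks in WT colitis, with neighbours within 0.10 of it.

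The pathways known to act on metallothioneins were then looked at through lists of their genes. The 8 lists held 117 genes, of which 47 are in any table, against 21.2% of the 21923 protein-coding genes of the annotation. In a table of KO against WT there were 2 of the 47, both from the list of oxidative stress and glutathione genes. One was Gsta3, higher in KO in both conditions. The other was Gpx3, the secreted glutathione peroxidase, lower in KO colitis by −0.55. For comparison, 0.522% of the genes in any table were higher in KO in the control table and 0.367% lower, and 0.696% and 0.387% in the colitis table. With 47 genes, shares of that size leave room for few members.

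Of 5 genes listed for MTF1 and its targets beside the metallothioneins, 1 is in a table, the zinc importer Slc39a10. Its KO minus WT difference was −0.14 in control and −0.30 in colitis. Of 10 zinc exporters and vesicle loaders of the Slc30 family 2 are in a table, and of 14 importers of the Slc39 family also 2. Slc30a2, which loads zinc into vesicles, had 0.51 in control and 0.91 in colitis at low levels of −0.68 to 1.18 log2 RPM, and Slc30a5, a loader of the secretory pathway, −0.03 and 0.13. Slc39a1, an importer of the plasma membrane, had 0.03 and −0.18. Of 16 copper genes 5 are in a table, and the copper chaperones Atox1 and Ccs had KO minus WT of 0.02 and 0.01 in control and of 0.13 and 0.24 in colitis. None of these zinc and copper genes is in a table of KO against WT. In colitis, Slc39a10 was higher by 0.72 and 0.56 in the WT and KO tables, and Steap4, a metalloreductase, by 2.15 and 2.29.

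Of 12 glucocorticoid response genes 7 are in a table. In colitis 5 were lower and 1 higher in the WT table, and 3 were lower and 1 higher in the KO table, with median differences of −0.76 and −0.71. Among all genes in any table, 36.6% were higher and 26.4% lower in the WT table, and 44.8% and 33.6% in the KO table. Tsc22d3, the glucocorticoid-induced leucine zipper gene, was lower by −0.76 in WT, and its KO value was −0.35. Zbtb16 was lower by −2.43 in WT and had −0.80 in KO, and its KO minus WT was −1.55 in control without being in that table. Hsd11b1, which regenerates active glucocorticoid, was higher by 1.39 and 1.10.

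Of 20 genes of the IL-6 family and STAT3 list 15 are in a table. In colitis 13 of these were higher and 1 lower in the WT table, and 10 were higher and 1 lower in the KO table, against the 36.6% and 44.8% of all genes given above as higher. Il6 is not in the KO table, and Osm, a cytokine of the family, is not in the WT table. The median difference was 1.13 in WT and 0.68 in KO. Il6 had means of −3.49 (WT) and −3.44 (KO) log2 RPM in control, the lowest of these groups, and of 2.57 (WT) and 0.44 (KO) in colitis. Il11, a cytokine of the same family, had 4.22 in WT colitis and 2.07 in KO colitis, from −2.53 and −1.32 in control. A mean of 3 reads per library stood at −1.75 in WT control and −1.70 in KO control. Il6 in both control groups and Il11 in WT control were under it, so the size of those colitis differences is uncertain. KO minus WT in colitis had a median of −0.33 over these 15 genes, and none is in that table.

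Of 34 oxidative stress and glutathione genes 15 are in a table. In colitis 9 were higher and 2 lower in the WT table, and 11 higher and 1 lower in the KO table. Of all genes in any table, 36.6% were higher and 26.4% lower in the WT table, and 44.8% and 33.6% in the KO table. Hmox1, the heme oxygenase, was higher by 1.67 and 1.03, and Gpx2, the gastrointestinal glutathione peroxidase, by 1.44 and 1.23. Their KO minus WT differences were 0.16 and 0.00 in control, and −0.48 and −0.20 in colitis, and neither gene is in a table of KO against WT. Of 10 heat shock genes 1 is in a table, the endoplasmic reticulum chaperone Hspa5, with −0.45 and −0.13 for KO minus WT.

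Markers of the cell types in the wall of the colon moved with colitis and are given because Mt2 moved with some of them. Of 8 stroma markers 4 are in a table, Col1a1, Col1a2, Col3a1 and Dcn, and their summed level was 2471 RPM for WT and 2398 for KO in control, and 4759 for WT and 3521 for KO in colitis. All 4 were higher in both colitis tables, against 36.6% (WT) and 44.8% (KO) of all genes in any table. Of 10 neutrophil markers 6 are in a table, summing to 95.9, 102, 395 and 286 RPM in the same order of groups, with Cxcr2 at −3.44 log2 RPM in both control groups, under the level of 3 reads. Of 10 other leukocyte markers 8 are in a table, summing to 652, 675, 1561 and 1546 RPM. The summed stroma and neutrophil levels thus stood in the same order as Mt2 in the colitis groups, with WT above KO. Their part in the Mt2 values was not tested. In WT control, S100a8, S100a9, Csf3r and Cxcr2 stood at −2.09, −1.30, 0.57 and −3.44 log2 RPM. The neutrophil sum there therefore rested mostly on the other markers of that list. Of 13 markers of the epithelium 3 are in a table, summing to 7311, 6945, 3452 and 3396 RPM, and of 8 markers of muscle and enteric glia 2, summing to 3619, 3358, 2345 and 2316 RPM. None of these markers is in a table of KO against WT. Those tables hold 0.89% (control) and 1.08% (colitis) of the genes in any table. For so few markers, the absence says little about cell composition. Single markers differed more between genotypes than these sums, and in both directions. In colitis, KO minus WT was −0.81 for Car1, 0.59 for Slc26a3 and 0.59 for Aqp8. Among the neutrophil markers it was −2.66 for S100a8, −2.77 for S100a9 and −1.67 for Cxcr2. Over all 6 it ran from −2.77 to 0.19, with a median of −1.29, so not all of them were lower in KO. The part of the cell type markers in the Mt1 values was not tested.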

How the data were processed

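Reads of 100 bases were sequenced on the BGISEQ-500 platform, as single-end reads per the labels and as paired-end reads per the study's methods. According to the submitters' processing notes, reads were mapped to GRCm38 with HISAT2 2.1.0 and tested with DESeq2. The authors kept uniquely mapped reads, removed reads over annotated rRNA, which had contaminated some libraries, and counted reads over exons of merged transcripts in SeqMonk. Each of the 4 deposited tables holds the genes under the authors' adjusted p-value threshold of 0.05 in 1 comparison, the authors' adjusted p-value (not used here), and 4 log2 values, the authors' group means of log2 RPM, which are not corrected for length. They come from 16 libraries, whose separate values were not used, so no test was made.

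Differences are of these means (Python 3.11.15, pandas 2.3.3, numpy 2.4.6, scipy 1.17.1, matplotlib 3.10.9). A count of 0 appears as 0.9 read, and all of the few distinct means under 1 read per library lay within 1e-05 of a step of whole reads. This gave the library sizes and, with reads per library taken as equal within a group, exact 95% counting intervals. Lengths and transcripts are from GENCODE, promoters from RefSeq. The scripts were tested on simulated data. The members, the gene lists and the rules were chosen with earlier results of these data known. Genes named are the metallothioneins, table genes within 1 Mb, the 10 and 5 most like Mt1 and Mt2, genes in both tables of KO against WT, up to 4 list members with the largest genotype and colitis differences, and Smarcad1. Other names are marked. Alternatives were other centrings, log2(RPM + 1), other lengths, other measures of likeness and stricter list counts.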

Additional observations from a re-analysis of the deposited data

How the results depend on the processing

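The log2(RPM + 1) scale, and for the genotype differences also both centrings, kept each Mt1 and Mt2 difference within its counting interval, and no difference changed sign in any alternative. Centring on the median of the 4897 genes above 3 reads in every group, or on the 2449 of these genes with the higher levels, moved the colitis differences. Mt1 in WT became 0.063 and 0.043, Mt1 in KO −0.28 and −0.30, Mt2 in WT 0.65 and 0.63, and Mt2 in KO 0.068 and 0.049. The longest transcript in place of the union of exons moved Mt1 minus Mt2 per length by less than 0.1. Like the union, the longest Mt1 transcript, of 1085 bases, is far longer than the spliced one of 549 bases. Their agreement is therefore not a separate check. The spliced transcript, chosen after seeing the data, gave 1.65 in WT control, 3.30 in KO control, 1.06 in WT colitis and 2.95 in KO colitis. Ranking by Pearson correlation over the 4 means kept 6 of the 10 genes most like Mt1, and the filter on low means kept 10. Of the 47 list members in a table, 44 were above 3 reads in every group and 21 had an absolute difference of at least 1 where listed.

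No paired analysis was possible because the columns of the deposited tables are group means that carry no replicate numbers. Leaving out single libraries was not run for the same reason, and the counts by sample in the study's supplement were not used. No value here was therefore set against the spread between mice, and a group mean that rests on 1 mouse would not be seen. Counting error is small at these depths, with 322 reads or more per library behind each Mt2 mean. Genes in no table were not analysed, so a list member without a value says nothing of its level. Antisense reads cannot be told apart in the Mt2 values.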
